A study of Homo sapiens with 60 samples.

Results

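SW1783 is a human astrocytoma cell line, and the study exposed it for 24 h to herbal extracts before sequencing its mRNA in bulk. The comparison described here sets 3 libraries of cells given Aconiti Lateralis Radix Preparata (Low dose), at 20 µg/mL, against 3 libraries of Vehicle(DMSO) cells, out of 60 libraries in the series. They were taken by their labelled treatment and dose, and 3 libraries of Bupleuri Radix (Low dose), also at 20 µg/mL, served as a check from the same set of library codes. The vehicle cells received 0.1% DMSO by their sample label (the series' design text gives another figure), and the labels do not give the DMSO that the extract-treated cells received. Both extracts carry the code of set 6 and the vehicle that of set B1, so against the vehicle the extract, its set and any difference in DMSO cannot be told apart. The 3 libraries of a group carry replicate numbers, but nothing says that they came from separate cultures, so the p-values rest on a spread among libraries that may be technical.

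Aconiti Lateralis Radix Preparata is the processed lateral root of aconite, a herb known for alkaloids of the aconitine type that hold voltage-gated sodium channels open. Mitochondrial genes and genes of the ATF4 response are described first. Mitochondrial DNA encodes ribosomal RNAs and subunits of the respiratory chain, which are copied into long precursor RNAs and cut at the tRNAs between the genes. ATF4 is the transcription factor of the integrated stress response: when amino acids run short, proteins misfold in the endoplasmic reticulum (ER) or mitochondria falter, its translation rises and it switches on genes of amino acid synthesis, amino acid uptake and tRNA charging.

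Library totals were 19.8 M to 21.8 M counts with aconite, 21.5 M to 23.4 M with Bupleuri Radix and 19.5 M to 23.0 M in the vehicle. Of the markers that define astrocytes, GFAP averaged 0.0792 CPM (counts scaled to library size) with aconite and 0.138 CPM in the vehicle, and AQP4 was at 0 in all 9 libraries, whereas VIM averaged 4594 and 4366 CPM. GFAP was thus near 0 in both groups and AQP4 had no count. Near 0 too were S100B (0.0819 CPM with aconite and 0.113 CPM in the vehicle), SLC1A2 (0.257 and 0.368 CPM) and ALDH1L1 (0 and 0.029 CPM). The remaining members were present: GJA1 averaged 238 CPM with aconite and 243 CPM in the vehicle, and SOX9 70.3 and 70.8 CPM. ALDOC averaged 6.40 and 6.61 CPM, and SLC1A3, called lower with aconite, 28.5 and 34.1 CPM. The 10 astrocyte markers summed to 4833 to 5011 CPM with aconite and 4528 to 4905 CPM in the vehicle, and most of this sum was VIM. Summed markers of fibroblast and mesenchymal cells (8 of 8 in the table) were 5476 to 5832 CPM with aconite and 6103 to 6362 CPM in the vehicle, those of epithelial cells (7 of 7) 203 to 214 and 242 to 251 CPM, those of neurons (8 of 8) 162 to 176 and 186 to 195 CPM, and those of oligodendrocytes (8 of 8, with SOX10 and OLIG1 at 0) 139 to 153 and 161 to 163 CPM. These 4 sums were lower with aconite without overlap. With so few libraries groups can separate by chance, and how many of all genes separate in this way was not tested. The sums are scaled to plain totals, of which the mitochondrial ribosomal RNAs took 3.14% with aconite and 0.932% in the vehicle. The part of that share in these lower sums was not tested either. Most of the oligodendrocyte sum was CNP (141 CPM with aconite, 155 CPM in the vehicle) and most of the epithelial sum KRT18 (191 and 227 CPM). The sums for microglia and macrophages (163 to 166 and 156 to 163 CPM, 9 of 9 in the table, with TYROBP, C1QB and C1QA at 0) and for endothelial cells (27.7 to 33.4 and 29.9 to 31.1 CPM, 6 of 6) overlapped between groups. The part of these markers in the results was not tested. In bulk RNA, a change in the makeup of the cells and a change in RNA per cell cannot be told apart.

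Between aconite at 20 µg/mL and the vehicle, 377 of 17190 genes tested, 2.19%, differed at an adjusted p under 0.05. Of these, 198 rose (1.15%) and 179 fell (1.04%). Every adjusted p given here comes from the quasi-likelihood test of edgeR, with Benjamini-Hochberg adjustment over all genes tested. Most shifts were small: the median size among the called genes was 0.22 on the log2 scale, 31 genes changed by 1.5-fold or more, and 9 by 2-fold or more, 5 up and 4 down. The median over all genes tested was -0.0030 on the log2 scale. Leaving out 1 library at a time gave 163 to 320 calls, and the count moved by over 1.5 times without aconite replicate 2 (199), aconite replicate 3 (163), vehicle replicate 1 (190) or vehicle replicate 2 (205).

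Within set 6, aconite against Bupleuri Radix at the same dose gave 92 called genes (0.535%), 60 higher (0.349%) and 32 lower (0.186%). Of the 377 genes called against the vehicle, 80 (21.2%) were called against Bupleuri Radix too and with the same sign, which is 87% of the 92, 53 up and 27 down. Both comparisons use the same aconite libraries, so these are not 2 independent results, and the comparisons with the vehicle share its libraries. Bupleuri Radix itself gave 13 called genes against the vehicle (0.0756%), 3 up (0.0175%) and 10 down (0.0582%). Against the mean of the 5 other extracts at 20 µg/mL, Bupleuri Radix among them, a comparison chosen after seeing the data, aconite gave 552 called genes (3.21%), 369 higher (2.15%) and 183 lower (1.06%). Replicates of aconite differed from each other by a chi-square of 2.78 to 3.77 per degree of freedom over genes, against 2.03 to 2.09 among Bupleuri Radix replicates and 2.06 to 2.31 among vehicle replicates. The 92 became 49 without aconite replicate 2, 54 without aconite replicate 3, 56 without Bupleuri Radix replicate 2 and 59 without Bupleuri Radix replicate 3. The 13 became 4 without Bupleuri Radix replicate 2, 3 without Bupleuri Radix replicate 3, 6 without vehicle replicate 1 and 5 without vehicle replicate 2.

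Among called genes with at least 2 CPM in the higher group, the largest changes were in the mitochondrial ribosomal RNAs. MT-RNR1 (12S rRNA, chrM:648-1601, plus strand) had 4561, 4093 and 4000.4 CPM with aconite, 754, 740.3 and 776 CPM with Bupleuri Radix, and 673, 663 and 705 CPM in the vehicle. The 3 aconite libraries were far above the others, and all 48 fitted libraries outside aconite lay between 492 and 827 CPM. MT-RNR1 rose by 2.63 ± 0.084 (log2, SE; 6.20-fold; adjusted p = 6.34e-29) over the vehicle and by 2.48 ± 0.084 (adjusted p = 6.87e-28) over Bupleuri Radix.

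MT-RNR2 (16S rRNA, chrM:1671-3229, plus strand) had 29568, 26413 and 27342 CPM with aconite, against 8509, 8387 and 8872 CPM in the vehicle. With Bupleuri Radix it had 9875, 9646 and 9927 CPM, and no library outside aconite exceeded 11917 CPM. The rise was 1.69 ± 0.074 (log2, SE; adjusted p = 3.33e-23) over the vehicle and 1.50 ± 0.074 (adjusted p = 4.67e-21) over Bupleuri Radix.

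**Figure D1:**
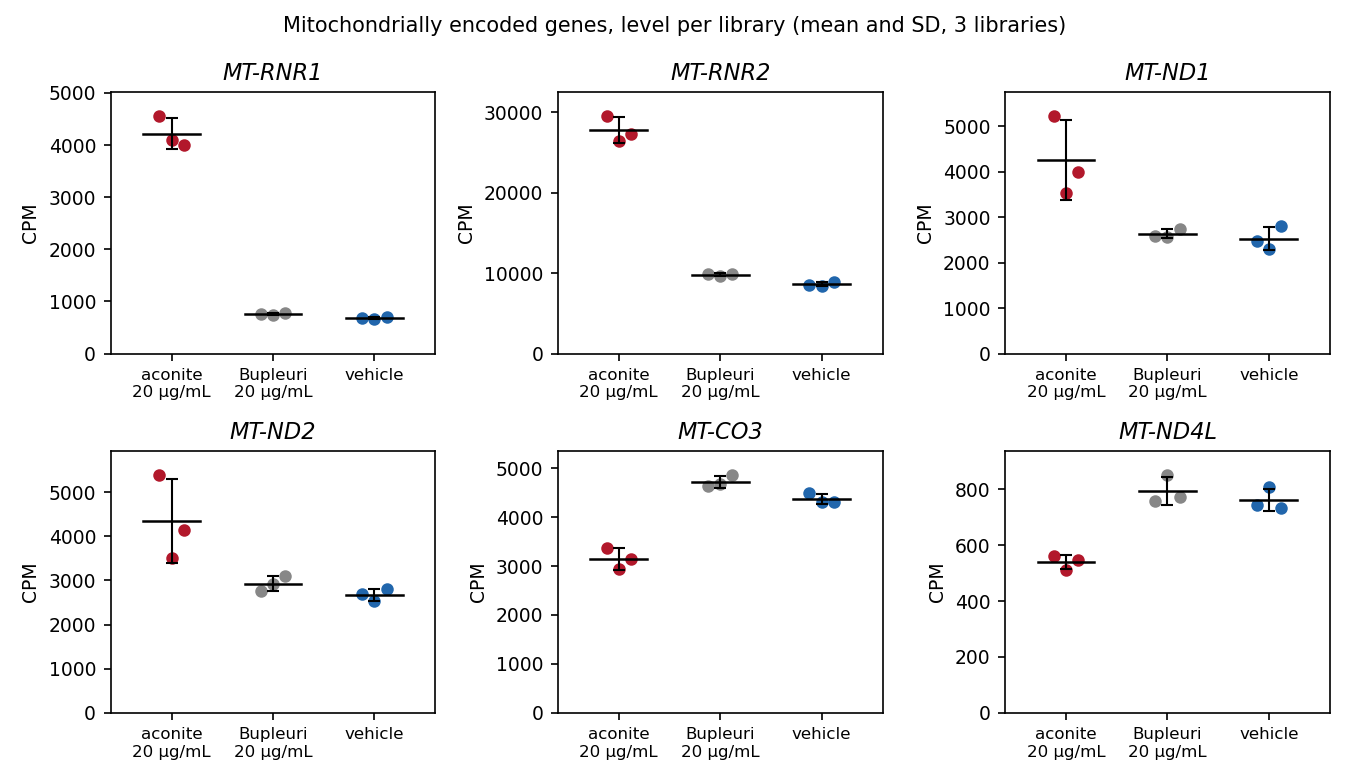
Level of 6 mitochondrially encoded genes in CPM (vertical axis from 0) in each library of aconite 20 µg/mL, Bupleuri 20 µg/mL and vehicle; points are libraries, lines and bars the mean and SD of 3. MT-RNR1 lay between 4000.4 and 4561 CPM with aconite against 663 to 705 CPM in the vehicle, while MT-CO3 and MT-ND4L were lower with aconite in every library.

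The 2 genes that follow the rRNAs on the mitochondrial genome also rose, with more spread. MT-ND1, a subunit of respiratory complex I, had 5234, 3529 and 3998 CPM with aconite, against 2472, 2311 and 2803 CPM in the vehicle. MT-ND2, another complex I subunit, had 5392, 3507 and 4145 CPM with aconite, against 2690.0, 2536 and 2811 CPM in the vehicle. Aconite replicate 1 was the highest for both; that the groups did not overlap was a condition for naming these genes. MT-ND1 rose by 0.75 ± 0.14 (log2, SE; adjusted p = 0.000815) and MT-ND2 by 0.70 ± 0.14 (adjusted p = 0.00162). Both were also higher than with Bupleuri Radix, by 0.69 (adjusted p = 0.00454) and 0.57 (adjusted p = 0.036). Libraries of other extracts reached 4581 CPM for MT-ND1 and 4617 CPM for MT-ND2, under aconite replicate 1 and above aconite replicates 2 and 3. MTND2P28, a nuclear pseudogene copy that can share reads with MT-ND2, had a rise of 0.52 (log2) over the vehicle (adjusted p = 0.0029).

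Further along the genome no gene was called higher in the main fit, which used the filter on low counts. Of the 11 other mitochondrial genes tested, 2 were called lower than the vehicle, and 9 had a difference below 0. Among the 13 that encode proteins the count called lower depended on the setting: it was 2 here, 9 with no filter on low counts and 7 in fits of 3 or 2 groups alone. With no filter 3 of the 13 were called higher, so a gene beyond MT-ND1 and MT-ND2 was among them. MT-CO3, a subunit of cytochrome c oxidase, had 3374, 2934 and 3136 CPM with aconite, against 4490 CPM, 4299.8 CPM and 4316 CPM in the vehicle. MT-ND4L, of complex I, had 563, 511 and 547 CPM with aconite, against 746, 807 and 732 CPM in the vehicle. Each fell, with log2 changes of -0.47 ± 0.083 (SE; adjusted p = 0.000288) for MT-CO3 and -0.50 ± 0.096 (adjusted p = 0.00107) for MT-ND4L, and both lay under all 48 libraries outside aconite. MT-ND4, whose exon overlaps MT-ND4L on the same strand, had a log2 difference of -0.41 from the vehicle (adjusted p = 0.051) and was called lower than Bupleuri Radix, at -0.51 (adjusted p = 0.0224). MT-CO1, MT-CO2, MT-ATP6, MT-ND5 and MT-CYB had differences from the vehicle of -0.17, -0.34, -0.26, -0.32 and -0.20 (log2), none called. MT-ATP8 had -0.16, MT-ND3, which lies between MT-CO3 and MT-ND4L, had 0.16, and the light-strand gene MT-ND6 had 0.04, none called either.

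**Figure D2:**
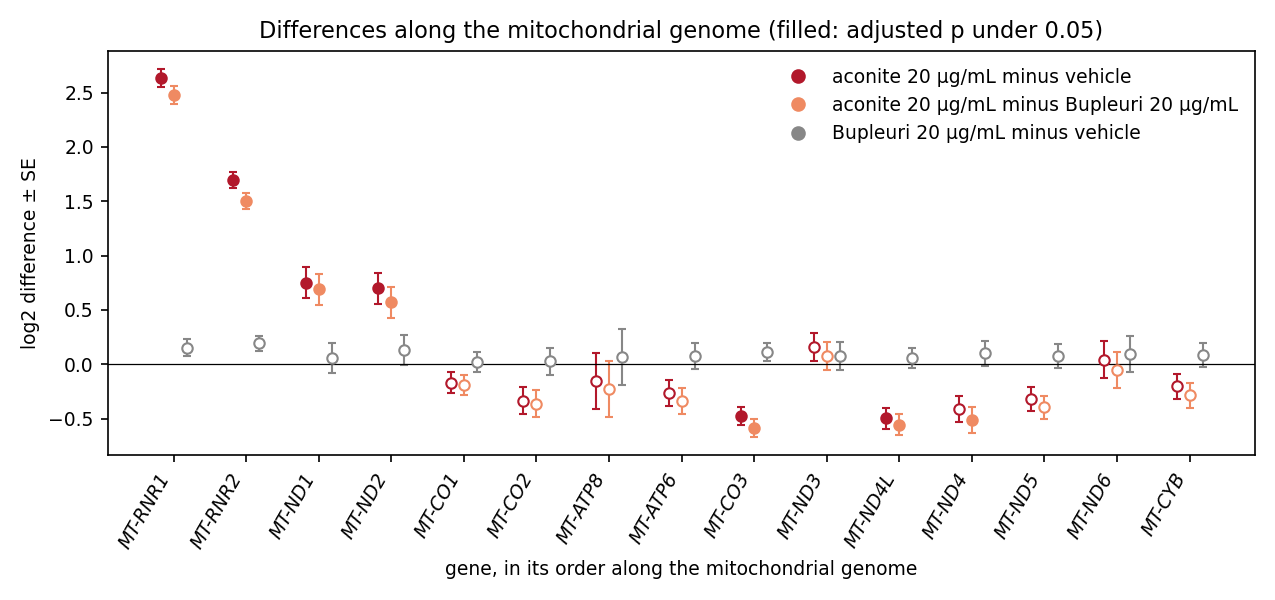
Log2 difference ± SE (vertical axis) of the 15 mitochondrially encoded genes tested, in their order along the mitochondrial genome, for aconite 20 µg/mL minus vehicle, aconite minus Bupleuri 20 µg/mL and Bupleuri minus vehicle; filled points have an adjusted p under 0.05. The aconite differences step down from 2.63 at MT-RNR1 over 1.69 at MT-RNR2 to 0.75 and 0.70 at MT-ND1 and MT-ND2, and the called genes after these are below 0.

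All 37 mitochondrial genes together took 6.96% ± 0.56 of counts with aconite and 5.14% ± 0.13 in the vehicle (SD, n = 3 each). This difference of 1.83 percentage points gave p = 0.1 in a two-sided exact permutation test, the smallest p that 3 against 3 libraries allow. The 2 rRNAs took 3.14% ± 0.16 with aconite and 0.932% ± 0.025 in the vehicle (exact p = 0.1), and 0.710% to 1.26% in the 51 libraries outside aconite. Bupleuri Radix against the vehicle also gave exact p = 0.1 for both shares, so this p does not set aconite apart. Its differences were 0.33 percentage points for all mitochondrial genes and 0.13 for the rRNAs. With the rRNAs left out of the numerator and the total, the mitochondrial share was 3.94% ± 0.42 with aconite and 4.25% ± 0.11 in the vehicle (exact p = 0.4), so the sign of the difference turned without them.

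None of 28 nuclear oxidative phosphorylation genes tested and none of 30 cytosolic ribosomal protein genes tested was called against the vehicle by edgeR or DESeq2, with medians of -0.0067 and -0.010 on the log2 scale and 1 and 2 members at an unadjusted p under 0.05. Over all genes 2.19% were called, so having no called member does not set a list of this size apart. HSPA9, the mitochondrial HSP70 that pulls proteins into the matrix, was chosen after its values were seen. It rose to 425, 434 and 439 CPM with aconite, against 399, 385 and 399.7 CPM in the vehicle (log2 0.13 ± 0.029, adjusted p = 0.0052). Of 18 histone genes whose RNA lacks a poly(A) tail, 12 were tested, none was called by edgeR or DESeq2 (3 at an unadjusted p under 0.05) and their median was -0.26 (log2). The nuclear-retained RNAs MALAT1 and NEAT1 rose, by 0.36 (adjusted p = 8.6e-05) and 0.40 (adjusted p = 0.00043), 2 of 6 tested. Against Bupleuri Radix MALAT1 was called, at 0.30 (adjusted p = 0.0031), and NEAT1 was not, at 0.15 (adjusted p = 0.55). The libraries were made with an mRNA kit, and the part of RNA selection in these differences was not tested.

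The list with the most rises held targets of ATF4 in amino acid supply and other stress-response genes, with ATF4 itself. Of 26 listed, 25 were tested, 12 rose and 1 fell, and their median was 0.25 on the log2 scale, against -0.0030 over all genes. Among all genes tested 1.15% rose and 1.04% fell. Against Bupleuri Radix 12 rose and none fell (median 0.23), where 0.349% of all genes were higher. For Bupleuri Radix against the vehicle none of the 25 was called by edgeR or DESeq2. Among them 3 had an unadjusted p under 0.05, and the median was 0.0071. In that comparison edgeR called 0.0756% of all genes, so having no called member does not set a list of this size apart. ATF4 mRNA itself had 125, 126 and 130.0 CPM with aconite, against 103, 99.5 and 101 CPM in the vehicle. It rose without overlap, by 0.33 ± 0.041 (log2, SE; adjusted p = 4.3e-07).

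The promoters of 3 genes of tRNA charging and amino acid stress that rose are shown because each holds the core letters TGATGNAA of the C/EBP-ATF response element, to which ATF4 binds with a C/EBP partner. The stretches are the 250 bases before the gene's start in RefSeq (GRCh38.p14): ASNS at chr7:97872409-97872658 on the minus strand, CHAC1 at chr15:40953221-40953470 on the plus strand and AARS1 at chr16:70289507-70289756 on the minus strand. Capitals mark the match, read on the shown strand (TGATGAAA in ASNS) or on the other one (TTGCATCA in CHAC1 and AARS1), with its first base 68 bases before the start in ASNS, 209 in CHAC1 and 187 in AARS1.
ASNS: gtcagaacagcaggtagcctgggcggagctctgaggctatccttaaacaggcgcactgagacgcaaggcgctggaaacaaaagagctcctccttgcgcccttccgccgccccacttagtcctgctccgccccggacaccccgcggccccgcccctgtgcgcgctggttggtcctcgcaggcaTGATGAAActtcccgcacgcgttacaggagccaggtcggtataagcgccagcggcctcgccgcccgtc
CHAC1: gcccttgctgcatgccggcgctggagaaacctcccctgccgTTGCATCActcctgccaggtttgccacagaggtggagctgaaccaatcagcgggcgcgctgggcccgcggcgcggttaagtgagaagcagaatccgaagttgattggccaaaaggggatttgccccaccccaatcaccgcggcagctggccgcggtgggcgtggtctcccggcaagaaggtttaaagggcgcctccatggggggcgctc
AARS1: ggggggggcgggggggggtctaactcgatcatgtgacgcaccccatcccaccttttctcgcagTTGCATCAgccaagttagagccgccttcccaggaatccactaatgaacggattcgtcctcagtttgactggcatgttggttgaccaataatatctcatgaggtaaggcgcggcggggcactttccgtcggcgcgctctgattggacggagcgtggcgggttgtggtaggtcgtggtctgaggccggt
Over 300 bases from 250 before to 50 after the start, both strands, 1.76% of 11815 promoters of tested genes held TGATGNAA. Of the 12 genes of the ATF4 list that rose, 10 had a promoter in the table and 2 of these held it, against 3 of 11 among the other members. A match is a description of letters and not evidence of binding.

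Asparagine synthetase, ASNS, had 66.5, 69.6 and 65.1 CPM with aconite, 52.0, 49.4 and 48.3 CPM with Bupleuri Radix, and 50.6, 50.5 and 49.3 CPM in the vehicle. TRIB3, a pseudokinase that ATF4 induces and that dampens it, had 28.2, 27.0 and 28.2 CPM with aconite, against 21.5, 17.0 and 19.5 CPM in the vehicle. The aconite libraries were above the others for both genes. ASNS rose by 0.42 ± 0.038 (log2, SE; adjusted p = 6.02e-11) and TRIB3 by 0.53 ± 0.063 (adjusted p = 1.07e-07), and their differences from Bupleuri Radix, 0.43 and 0.52, were called as well.

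The steepest nuclear rises in both comparisons were low in level. GDF15, a stress-induced secreted hormone, had 7.07, 7.29 and 7.79 CPM with aconite, against 3.12, 4.14 and 4.24 CPM in the vehicle. CHAC1, an enzyme that breaks down glutathione, had 7.31, 5.54 and 7.02 CPM with aconite, against 4.33, 3.70 and 4.34 CPM in the vehicle. NUPR1, a stress-induced chromatin protein, had 10.6, 10.5 and 10.7 CPM with aconite, against 6.29, 6.55 and 7.41 CPM in the vehicle. The aconite libraries were the higher ones for all 3, which the rule that named these genes required. They rose by 0.94 ± 0.13, 0.69 ± 0.12 and 0.65 ± 0.092 (log2, SE; adjusted p = 1.48e-06, 0.000418 and 6.17e-06). ADM2, a peptide hormone of the calcitonin family, rose by 0.90 ± 0.17 (adjusted p = 0.00059).

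Further members of the list rose by less. PSAT1, of serine synthesis, had 82.3, 82.4 and 81.2 CPM with aconite, against 61.8, 63.5 and 59.0 CPM in the vehicle (log2 0.41, adjusted p = 9.97e-06). PHGDH, the first enzyme of that route, rose by 0.25 (adjusted p = 0.00115), and mitochondrial SHMT2, which turns serine into glycine, by 0.21 (adjusted p = 0.00054). ALDH1L2, a mitochondrial folate enzyme outside the list chosen after its values were seen, rose by 0.43 (adjusted p = 9.6e-05). The remaining members that rose were SLC7A5, a transporter of large neutral amino acids, SESN2, a leucine sensor that restrains mTORC1, and CEBPG, a C/EBP partner of ATF4, by 0.28, 0.34 and 0.19. The glutamine transporter SLC38A2 fell, at -0.24 (adjusted p = 0.0094), with a difference of -0.18 (adjusted p = 0.36) for Bupleuri Radix. MTHFD2 and SLC7A11, mitochondrial folate and cystine-import genes, had differences of 0.08 and 0.04 and were not called, and DDIT3, the death-linked factor CHOP, had 0.29 from the vehicle (adjusted p = 0.087) and 0.37 from Bupleuri Radix (adjusted p = 0.049).

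Cytosolic tRNA synthetases, which load amino acids onto tRNA, rose in 8 of 18 tested with none falling, and their median was 0.12 (log2). Among all genes tested 1.15% rose. The 8 were AARS1, GARS1, TARS1, YARS1, LARS1, MARS1, IARS1 and NARS1. AARS1, the alanine enzyme, had 221, 226 and 229.6 CPM with aconite, against 185, 192 and 186 CPM in the vehicle, and rose by 0.27 ± 0.030 (log2, SE; adjusted p = 4.42e-08). XPOT, which exports tRNA from the nucleus and was chosen after its values were seen, rose by 0.22 (adjusted p = 9.9e-06). Against Bupleuri Radix 5 of the 18 were higher, AARS1, GARS1, IARS1, WARS1 and YARS1 (8 with DESeq2). For Bupleuri Radix against the vehicle neither tool called any (2 at an unadjusted p under 0.05). With 0.0756% of all genes called there by edgeR, having none called does not set a list of this size apart. Of the 8 that rose, 6 had a promoter in the table and 5 of these held TGATGNAA (AARS1, IARS1, MARS1, NARS1 and TARS1), against 1 of 8, CARS1, among the members that were not called.

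ER chaperones and their partners rose in 9 of 20 tested with none falling, where 1.15% of all genes rose, and their median was 0.10 (log2). HERPUD1, which takes part in ER-associated degradation, had 101, 109.99 and 99.3 CPM with aconite, against 81.6, 77.3 and 78.8 CPM in the vehicle. HSPA5, the main ER chaperone BiP, had 4112, 4196 and 4110.1 CPM with aconite, against 3670.2, 3607 and 3676 CPM in the vehicle. The groups did not overlap in either gene. HERPUD1 rose by 0.38 ± 0.049 (log2, SE; adjusted p = 6.33e-07) and HSPA5 by 0.18 ± 0.036 (adjusted p = 0.00146). The others were HSP90B1, XBP1, MANF, PDIA4, CALR, PDIA3 and HYOU1, with rises between 0.12 and 0.19. Against Bupleuri Radix 8 of the 20 were higher and none lower (median 0.12). For Bupleuri Radix against the vehicle neither tool called any, none had an unadjusted p under 0.05, and the median was -0.018. As edgeR called 0.0756% of all genes there, having none called does not set this list apart.

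The promoters of 3 of these ER genes are shown because they hold the ER stress response element, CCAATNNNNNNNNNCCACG, through which ATF6 and NF-Y act. The 250 bases before the start in RefSeq (GRCh38.p14) lie at chr9:125241344-125241593 on the minus strand for HSPA5, at chr12:103930160-103930409 on the plus strand for HSP90B1 and at chr22:28800570-28800819 on the minus strand for XBP1, and capitals mark each match on either strand.
HSPA5: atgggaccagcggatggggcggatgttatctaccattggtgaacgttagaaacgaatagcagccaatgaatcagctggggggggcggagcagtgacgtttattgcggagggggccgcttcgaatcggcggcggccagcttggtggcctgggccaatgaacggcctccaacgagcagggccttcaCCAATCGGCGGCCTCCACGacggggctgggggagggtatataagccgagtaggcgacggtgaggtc
HSP90B1: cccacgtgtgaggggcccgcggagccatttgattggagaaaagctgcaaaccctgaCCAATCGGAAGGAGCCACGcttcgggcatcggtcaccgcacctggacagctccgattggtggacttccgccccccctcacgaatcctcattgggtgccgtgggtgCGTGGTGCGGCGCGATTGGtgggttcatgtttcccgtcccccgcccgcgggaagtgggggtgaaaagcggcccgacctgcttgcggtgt
XBP1: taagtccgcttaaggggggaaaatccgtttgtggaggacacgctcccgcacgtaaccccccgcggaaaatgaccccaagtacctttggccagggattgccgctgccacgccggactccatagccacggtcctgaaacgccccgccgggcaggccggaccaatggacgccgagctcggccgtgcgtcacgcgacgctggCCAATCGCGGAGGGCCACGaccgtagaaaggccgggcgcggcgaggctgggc
The first capital lies 66 bases before the start in HSPA5, 194 and 89 in HSP90B1, which has 2 matches, and 52 in XBP1. Over 300 bases and both strands, 0.118% of the 11815 promoters held the element, as did 4 of 8 ER genes that rose and had a promoter in the table (CALR with these 3) and 2 of 11 members that were not called (CANX and CRELD2).

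**Figure D3:**
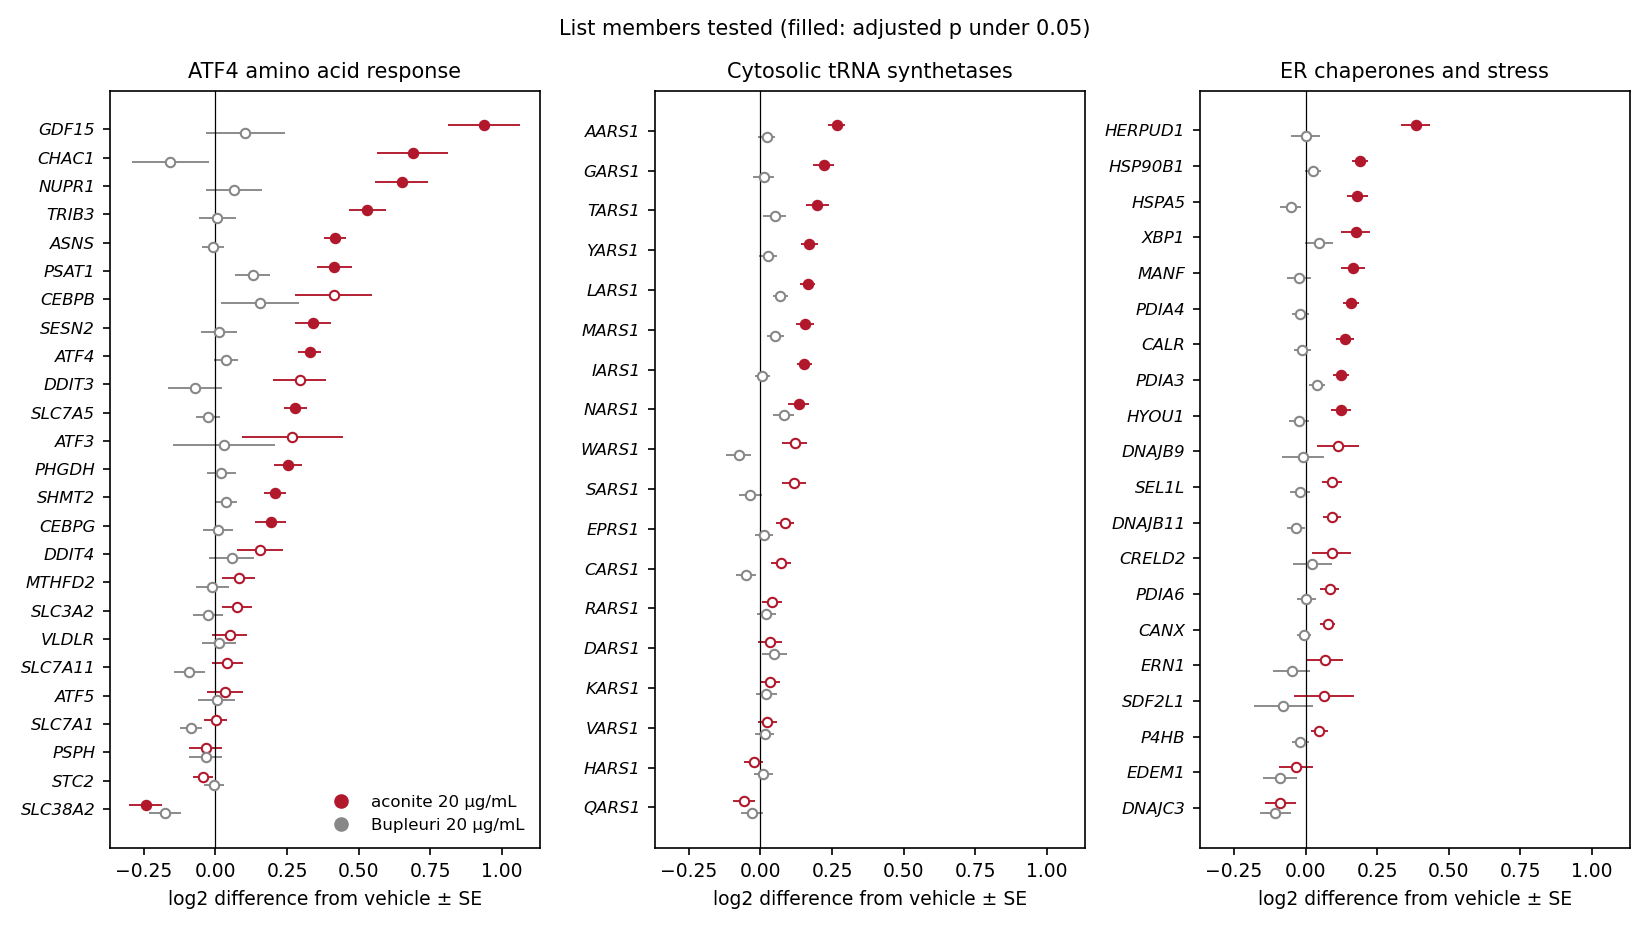
Log2 difference from the vehicle ± SE (horizontal axis) for each tested member of 3 lists, sorted by the aconite value; red is aconite 20 µg/mL, grey Bupleuri 20 µg/mL, and filled points have an adjusted p under 0.05. With aconite 12 of 25 ATF4 response genes, 8 of 18 tRNA synthetases and 9 of 20 ER genes rose, and all grey points are open. Of all genes tested 1.15% rose with aconite, and 0.0756% were called for Bupleuri.

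NRF2 drives the response to oxidative stress, and of 24 targets tested 4 rose and none fell (median 0.034, log2), and 2 of these were also higher than with Bupleuri Radix. HMOX1, heme oxygenase, had 72.6, 72.0 and 69.1 CPM with aconite, against 57.8, 56.8 and 58.8 CPM in the vehicle, and the autophagy receptor SQSTM1 had 642, 645 and 620.1 CPM with aconite, against 479, 516 and 527 CPM. Neither overlapped, and they rose by 0.30 (adjusted p = 4.7e-05) and 0.33 (adjusted p = 3.4e-08), also over Bupleuri Radix by 0.23 and 0.25 (adjusted p = 0.0045 and 1.1e-05). OSGIN1 and the ferritin chain FTH1 were called against the vehicle alone, while NQO1, GCLM and TXNRD1 were not called. Of 18 cytosolic heat shock genes tested 2 rose, HSP90AA1 and HSPA1B, and of all genes tested 1.15% rose. None was called against Bupleuri Radix by edgeR or DESeq2 (2 at an unadjusted p under 0.05). In that comparison edgeR called 0.535% of all genes, so having none called does not set this list apart. HSPA1B has a near-identical copy, HSPA1A, so its value is uncertain. None of 17 p53 targets and none of the 6 sodium channel genes tested, of 13 listed, was called by edgeR or DESeq2, with 3 and 0 at an unadjusted p under 0.05. With 2.19% of all genes called, having no called member does not set lists of this size apart.

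Among called genes with at least 2 CPM in the higher group, the largest fall was that of TXNIP, which inhibits thioredoxin and restrains glucose uptake. TXNIP had 4.05, 4.74 and 4.10 CPM with aconite, 8.50, 9.73 and 9.75 CPM with Bupleuri Radix, and 9.31, 8.44 and 8.38 CPM in the vehicle. Its log2 change was -1.02 ± 0.12 (SE; adjusted p = 8.01e-08) from the vehicle and -1.12 ± 0.12 (adjusted p = 4.72e-09) from Bupleuri Radix, and no fitted library outside aconite was under 6.81 CPM. ARRDC4, its relative under the same glucose-sensing factors, had a difference of -0.25 from the vehicle and was not called (adjusted p = 0.28).

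Further falls were called in both comparisons. HAS3, a hyaluronan synthase, had 24.1, 25.1 and 20.95 CPM with aconite, 30.2, 31.1 and 27.7 CPM with Bupleuri Radix, and 35.1, 33.0 and 34.2 CPM in the vehicle. Bupleuri Radix lay between the other groups. HAS3 fell, with log2 changes of -0.54 ± 0.067 (SE; adjusted p = 2.91e-07) from the vehicle and -0.34 (adjusted p = 0.0034) from Bupleuri Radix. COLEC12, a scavenger receptor, the signalling adaptor SHC4, TCAF2, a regulator of TRPM8 channels, and the membrane protein PLXDC1 fell from the vehicle, with log2 changes of -0.42, -0.41, -0.40 and -0.37. PDGFRA, the PDGF receptor alpha, and the integrin ITGB8, chosen after its values were seen, also fell, with log2 changes of -0.37 and -0.39 from the vehicle and -0.31 and -0.25 from Bupleuri Radix. Many genes named here overlap exons of genes on the opposite strand, among them HAS3 (with CHTF8), SHC4 (with EID1), COLEC12, CYP1B1, SHMT2 and SQSTM1. Others are KCNG1, HSP90B1, CALR, PDIA3, HYOU1, SLC7A5, RRM1, TYMS, THBS1, IRS2 and MARS1 (with DDIT3), and this is not the full set. Reads of both partners may be counted together, and the sources used here do not give the strand setting of the counts. On the same strand, AHRR overlaps exons of PDCD6, and TCAF2 those of a pseudogene. PDGFRA, RRM2, AMT, OSGIN1, LIMS4, ASNS and HSPA1B overlap other annotated genes on their own strand, and this set is not full either.

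Of 7 targets of the aryl hydrocarbon receptor tested, 3 fell from the vehicle and none rose (median -0.33, log2), where 1.04% of all genes fell. CYP1B1, a cytochrome P450 of that pathway, had 127, 130.1 and 133 CPM with aconite, against 164, 163 and 162 CPM in the vehicle, and fell, with a log2 change of -0.33 ± 0.035 (adjusted p = 1.52e-08). It was the 1 member also lower than with Bupleuri Radix (149, 159.8 and 156 CPM; log2 -0.26, adjusted p = 5.95e-06). AHRR, the pathway's repressor, and TIPARP fell, with log2 changes of -0.40 and -0.25 from the vehicle, but AHRR fell with Bupleuri Radix too, at -0.25 (adjusted p = 0.027).

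**Figure D4:**
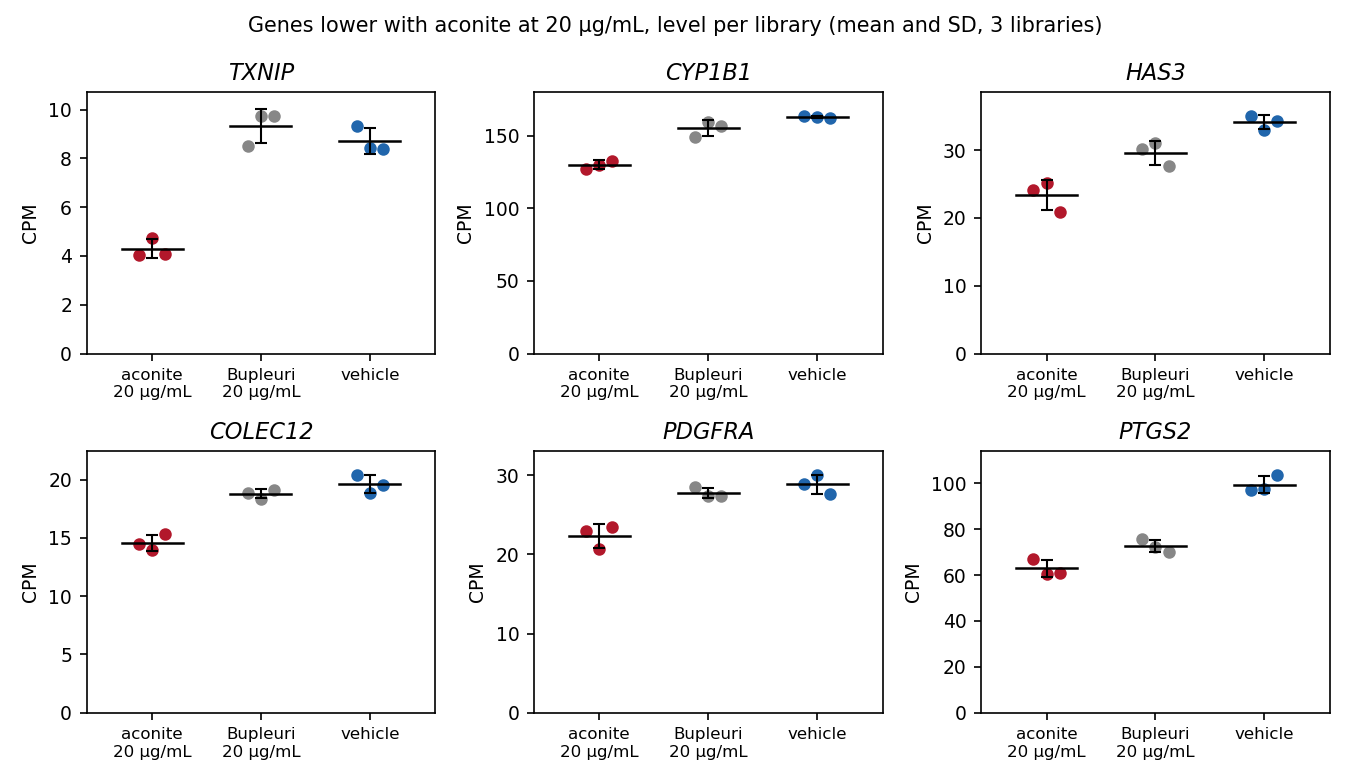
Level in CPM (vertical axis from 0) of 6 genes lower with aconite, in each library of aconite 20 µg/mL, Bupleuri 20 µg/mL and vehicle; points are libraries, lines and bars the mean and SD of 3. For PTGS2 the Bupleuri libraries also lie under the vehicle, at 70.2 to 75.7 CPM against 96.9 to 104 CPM, whereas for TXNIP they lie at the vehicle's level.

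Of 22 NF-kB targets tested, 3 fell from the vehicle and none rose (median -0.068, log2): PTGS2, the chemokine CCL2 and the cytokine LIF. The share of all genes that fell was 1.04%. PTGS2, the inducible cyclooxygenase, had 67.1, 60.7 and 60.9 CPM with aconite, 75.7, 72.2 and 70.2 CPM with Bupleuri Radix, and 96.9, 97.6 and 104 CPM in the vehicle. It fell from the vehicle, with log2 changes of -0.66 with aconite (adjusted p = 9.22e-12) and -0.45 with Bupleuri Radix (adjusted p = 1.2e-06), and aconite differed from Bupleuri Radix by -0.21 (adjusted p = 0.094). All 15 libraries of the other 5 extracts at 20 µg/mL, Bupleuri Radix included, lay between 70.2 and 81.4 CPM, under the 3 vehicle libraries. Against Bupleuri Radix none of the 22 was called by edgeR, 2 by DESeq2, and 5 had an unadjusted p under 0.05. With 0.535% of all genes called there by edgeR, having none called does not set a list of this size apart. Against the mean of the 5 other extracts PTGS2 and CCL2 were lower with aconite, at -0.27 (adjusted p = 9.58e-05) and -0.28 (adjusted p = 0.0379).

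Of 25 DNA replication genes tested, 4 fell by small amounts, MCM3, RRM1, RRM2 and TYMS, against the vehicle, and none rose (median -0.078, log2). RRM2, a subunit of ribonucleotide reductase, had 194.3, 194.0 and 194.7 CPM with aconite, 219, 222 and 216 CPM with Bupleuri Radix, and 227, 218 and 214 CPM in the vehicle. Its log2 change was -0.18 (adjusted p = 0.00043), and RRM1, the other subunit, had -0.11 (adjusted p = 0.0076), and both were also lower than with Bupleuri Radix. Of 25 mitotic genes 1 fell, KIF23 (median -0.037). Of all genes tested 1.04% fell from the vehicle, so 1 called member does not set a list of this size apart.

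Other lists held a few called genes each, where 1.15% of all genes rose and 1.04% fell against the vehicle. Whether such small counts exceed these shares was not tested. Of 27 collagen and matrix genes tested, 3 fell from the vehicle and none rose (median -0.012, log2): COL12A1, the adhesive glycoprotein THBS1 and the proteoglycan VCAN, with log2 changes of -0.16, -0.19 and -0.11. Against Bupleuri Radix COL12A1 was the 1 called. Of 15 insulin and FOXO genes tested, FBXO32, a ubiquitin ligase subunit induced by FOXO factors, rose by 0.35 (adjusted p = 4.05e-06) and the insulin receptor substrate IRS2 by 0.35 (adjusted p = 1.12e-05), while PIK3IP1 and TXNIP fell (list median 0.065). FBXO32 and IRS2 were also higher than with Bupleuri Radix, by 0.31 and 0.20. Of 12 YAP targets 2 rose, the receptor kinase AXL by 0.16 and the matrix protein CCN1 by 0.41 (list median -0.0052), and AXL was also called against Bupleuri Radix. Of 30 glycolysis and hypoxia genes 3 rose, ENO2, PFKP and SLC2A3 (median -0.011). None of the 30 was called against Bupleuri Radix by edgeR or DESeq2, with 7 at an unadjusted p under 0.05. There edgeR called 0.535% of all genes, so having none called does not set a list of this size apart.

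Several of the largest rises and falls against the vehicle were at low levels and less stable. SPDYE6, of a multicopy family whose reads can be split between copies, had 3.16, 2.94 and 3.48 CPM with aconite, 2.43, 2.59 and 3.22 CPM with Bupleuri Radix, and 1.51, 1.38 and 1.18 CPM in the vehicle (log2 1.23, adjusted p = 0.0269). The transcription factor KLF2, the glycine cleavage enzyme AMT, the sialyltransferase ST8SIA5, LIMS4 (also of a multicopy family), the synaptotagmins SYT16 and SYT12, METTL7A, CA11, the R-spondin receptor LGR6 and the sodium/proton exchanger SLC9A9 complete this group. KLF2 and AMT rose by 0.82 and 0.62 (log2), and ST8SIA5 and LIMS4 fell, with log2 changes of -0.81 and -0.73. None of the group was called against Bupleuri Radix by edgeR. Of the 377 genes called against the vehicle, 21.2% were called there with the same sign. Each of these 11, and PLXDC1, lost its call in 2 to 10 of 13 alternative settings. KCNG1, a modifying subunit of potassium channels, kept its call: it had 14.9, 14.9 and 14.6 CPM with aconite, 11.1, 12.2 and 10.8 CPM with Bupleuri Radix, and 9.31, 9.39 and 9.66 CPM in the vehicle (log2 0.65, adjusted p = 3.55e-06), and was higher than with Bupleuri Radix by 0.38 (adjusted p = 0.0158).

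Higher doses of the same extract, not tested here, place the 20 µg/mL values. GDF15 averaged 3.83 ± 0.62 CPM in the vehicle, 7.38 ± 0.37 at 20 µg/mL, 51.2 ± 3.1 at 100 µg/mL and 437 ± 12 at 500 µg/mL (SD, n = 3 each). TRIB3 averaged 19.3, 27.8, 138 and 385 CPM in the same order, and ASNS 50.2, 67.0, 209 and 371 CPM. These stress genes stood higher at each dose. MT-RNR1 averaged 680.4, 4218, 15135 and 13568 CPM, and MT-RNR2 8589, 27774, 69280 and 50944 CPM, highest at 100 µg/mL. MT-ND1 averaged 2529 ± 251, 4253 ± 881, 2826 ± 95 and 2677 ± 62 CPM, so of the 4 groups the 20 µg/mL libraries had the highest mean. TXNIP averaged 8.71, 4.30, 2.61 and 6.75 CPM, lowest at 100 µg/mL.

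**Figure D5:**
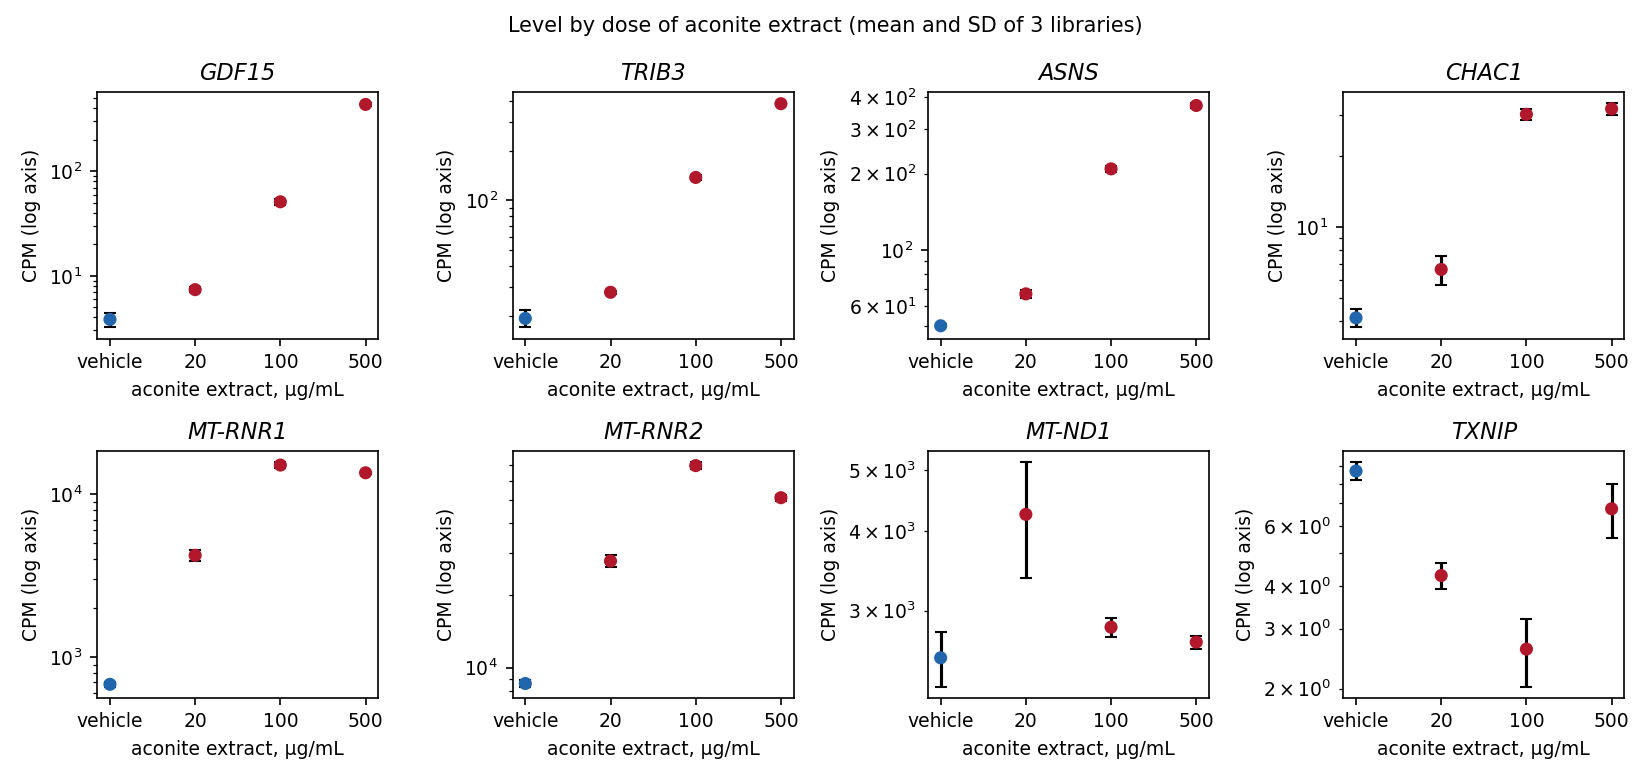
Mean level and SD of 3 libraries in CPM (vertical log axis) of 8 genes in the vehicle and at 20, 100 and 500 µg/mL of aconite extract (horizontal axis, not to scale). GDF15, TRIB3 and ASNS stand higher at each dose, up to 437, 385 and 371 CPM, while MT-ND1 is highest at 20 µg/mL and TXNIP lowest at 100 µg/mL.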

How the data were processed

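SW1783 mRNA libraries were sequenced, and the authors deposited 1 table of RSEM expected counts per gene, unnormalized, for 60 libraries. Per the submitters' processing notes, FastQC 0.11.9, Trim Galore 0.6.5, STAR 2.7.3a, RSEM 1.3.3 and build GRCh38 (hg38) were used; the sources used here give neither annotation release nor strand setting. Expected counts were rounded (9.22% of values were not whole), and 57 libraries of 19 groups of 3 were fitted together with edgeR 4.0.16 in R 4.3.3 (TMM factors, filterByExpr by group, quasi-likelihood test, Benjamini-Hochberg adjustment over 17190 genes, called at 0.05); Bojungikgi-tang, with 1 library per dose, was left out. CPM values use the TMM-scaled totals, marker levels the plain totals. CPM is not scaled for gene length, so levels are not compared between genes. Named genes were the 12 largest rises and 12 largest falls called against the vehicle with a symbol, at least 2 CPM in the higher group and no overlap between libraries, the 8 largest each way called in both comparisons, and members of 49 gene lists. The members and lists were chosen with earlier results of these data known. Symbols came from a gene name table, gene positions and exon overlaps from GENCODE release 29, and promoters from RefSeq. Alternatives were DESeq2 1.42.0, other size factors, no filter, fewer groups in the fit, a replicate block, mitochondrial genes left out, and each library left out. Lists that the text does not describe are not reported here.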

Additional observations from a re-analysis of the deposited data

How the results depend on the processing

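Aconite against the vehicle gave 377 called genes. The count was 359 to 464 under DESeq2, other size factors, no filter and fits of 3 or 2 groups. It was 446 with a replicate block, 370 with mitochondrial genes left out and 163 to 320 with 1 library left out. The called genes changed more than these totals. Of the 377, 259 were called with no filter, 276 in the fit of 2 groups, 318 in that of 3 groups and 332 with DESeq2. Other size factors kept 375 and the replicate block 377, and without mitochondrial genes 349 were called. The replicate block gave 101 for aconite against Bupleuri Radix and 26 for Bupleuri Radix against the vehicle, against 92 and 13. Deviations of same-numbered libraries had correlations of -0.073 to 0.076. Such values over 3 libraries per group cannot decide whether the numbers pair the samples, and the main fit of 57 libraries held no replicate block. Aconite against Bupleuri Radix gave 212 calls with no filter and 49 to 87 with 1 library left out. Against the mean of 5 other extracts at 20 µg/mL, a setting chosen after seeing the data, it gave 552, 369 up and 183 down, of which 175 were among the 377 with the same sign. Bupleuri Radix against the vehicle gave 24 calls with DESeq2, 116 with no filter, 31 in the fit of 2 groups and 3 to 12 with 1 library left out. The causes were not tested. The mitochondrial share difference was 1.53 to 2.09 percentage points with 1 library left out and -0.30 without the rRNA genes, where the numerator itself changes. Of 30 named genes, 18 were called in all settings run and 12 lost the call in at least 1; none changed sign. The ATF4 list had 11 to 14 rises, the tRNA synthetases 6 to 9 and the ER list 6 to 10. MT-ND1 and MT-ND2 had 0.58 and 0.52 without aconite replicate 1 (adjusted p = 0.0267 and 0.0478). The 12 genes that lost a call averaged between 1.43 CPM (ST8SIA5) and 9.17 CPM (PLXDC1) with aconite; TXNIP, CHAC1 and GDF15, at 4.30, 6.62 and 7.38 CPM, kept theirs.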
